A study of Mus musculus with 6 samples.

Results

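The nuclear genes of the mitochondrial respiratory chain were followed in mouse fetal liver cells as these matured along the red cell lineage in culture. Members are the protein-coding genes of the GENCODE M21 annotation whose symbols begin with Nduf, Sdha to Sdhd, Uqcr, Cox4 to Cox8 or Atp5, together with Cyc1 and without Ndufa4l2. This name rule found 98 gene IDs, with 97 distinct symbols, among the 54232 IDs listed. The rule itself used no measured value, but the members were chosen with earlier results of these data known. By known role, 84 are subunits of a complex, 12 are assembly factors and 2 are neither, namely Cox7a2l, which takes part in joining complexes III and IV, and Atp5s, the coupling factor B. The study concerns chromatin and nuclear condensation late in red cell development. It took Ter-119 negative cells, that is, cells without a surface antigen of maturing red cells, from livers of C57/B6 mouse embryos at E13.5. The 30 h libraries, 3 in number, were made after 30 h of culture in medium with erythropoietin (EPO), the hormone of red cell production, with the solvent DMSO present for the last 6 h as the vehicle of the caspase inhibitor Z-VAD-FMK. The other 3 libraries were made from the purified cells at day 0, with no treatment. No library here had Z-VAD-FMK. Every 30 h library had DMSO and no day 0 library did, so culture time and DMSO cannot be told apart.

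The chain lies in the inner mitochondrial membrane. Complex I oxidises NADH and complex II succinate, complex III passes the electrons from ubiquinol to cytochrome c, complex IV hands them to oxygen, and complex V, the ATP synthase, makes ATP from the proton gradient that complexes I, III and IV build. All of these except complex II also hold subunits encoded in mitochondrial DNA, and each needs assembly factors that are not part of the finished enzyme. Maturing red cells use mitochondria for heme synthesis and for energy, and lose them before they enter the blood.

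Library totals were 19241780 to 24154481 counts at 30 h and 27754279 to 29949173 counts at day 0. Levels are CPM, counts on a common scale of library total after TMM scaling, which sets library totals so that most genes agree between libraries, and levels of different genes are compared per kilobase of exon (RPKM). Globin genes held 8.73% to 13.2% of counts at 30 h and 0.111% to 0.130% at day 0. The libraries of the groups differed in spread, with a biological coefficient of variation of 20.5% at 30 h and 5.28% at day 0. Replicate 3 of the 30 h group stood apart, its counts giving a chi-square of 88.6 and 48.8 per degree of freedom against its partners and these 11.0 against each other. It had the highest 30 h level in 84 of 94 members tested, at a median 1.39 times the mean of replicates 1 and 2. The labels call both groups progenitor cells and do not say whether libraries came from separate animals or cultures, so every p-value rests on the spread of these samples alone, which may be technical. Erythroid markers marked the 30 h libraries, with 11 of 11 higher and summed levels of 121610 to 174750 CPM at 30 h and 1744 to 1943 CPM at day 0.

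Most respiratory chain genes were more abundant at 30 h. Of the 94 members that passed the filter on low counts, 77 were higher (81.9%), 4 were lower and 13 did not pass the test (edgeR's quasi-likelihood test, Benjamini-Hochberg adjusted over 16150 genes, threshold 0.05). Over all genes tested 74.5% were called, 34.4% higher and 40.1% lower, and over the protein-coding genes among them 75.7%, with 32.1% higher and 43.6% lower. The median log2 change of the members was 1.04, against -0.09 for all genes and -0.20 for protein-coding genes. In 48 members the rise was at least 2-fold, where 20.6% of all genes rose that far, and in 8 it was at least 4-fold (Cox6b2, Atp5l, Uqcrh, Cox6c, Ndufb4, Atp5e, Ndufa2 and Cox7c). No member was at least 2-fold lower, where 28.2% of all genes were. The 2 groups held separate ranges in 85 members (90.4%), against 79.7% of all genes, and 4 of these did not pass the test. The other 4 IDs did not pass the filter. Cox7b2, Cox8c and a second ID of Atp5o had 0 counts in every library, and Cox8b averaged 0.257 CPM at 30 h and 0.125 CPM at day 0. In bulk RNA, a larger share of cells that express a gene and more of its RNA per cell cannot be told apart. In 21 members over 20% of the 50-base stretches of the mRNA also occur in transcripts of other genes, so that reads may have been dropped or assigned elsewhere in counting. Among those described below, Ndufs3, Ndufb4, Ndufb6, Ndufb9, Sdhaf1, Uqcrc2, Cox5a, Cox5b, Cox6c, Cox7c, Atp5f1, Atp5h, Atp5l, Atp5o and Atp5g2 are of this kind. Both strands were matched, so a gene that overlaps a member on the other strand counts among the other genes.

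Scaling and 30 h replicate 3 bore on the counts of calls. With libraries scaled by their totals only, the median log2 change of all genes was -0.58 and that of the members 0.55, with 53 members higher and 11 lower. Without 30 h replicate 3, 78 members were higher and 7 lower, and their median log2 change was 0.81.

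With TMM scaling, complex IV had the largest median log2 change of its subunits and complex II the smallest. With a coding length trend removed, complex I stood first (0.68), followed by complexes V (0.50), IV (0.49) and III (0.43), and complex II last (-0.14). With TMM alone, the subunits of complex IV had a median log2 change of 1.26, with 15 of 15 tested higher. For complex V the median was 1.17, with 12 of 16 higher and 2 lower, and for complex I it was 1.16, with 32 of 36 higher. Complex III had a median of 1.00, with 8 of 9 higher. The 4 subunits of complex II had a median of 0.21, with 1 higher and none lower, and with scaling by totals only this median was -0.28, when that of all genes was -0.58. Assembly factors, found under these names for complexes I and II only, had a median of 0.49, with 7 of 12 higher and 2 lower, and none reached 2-fold. Subunits as a whole had a median of 1.16, with 68 of 80 higher and 2 lower, and 46 were at least 2-fold higher. In complex II alone the assembly factors had the larger median, 0.57, against 0.21 for its subunits. These medians describe genes chosen by name, and no test was made between the classes.

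**Figure D1:**
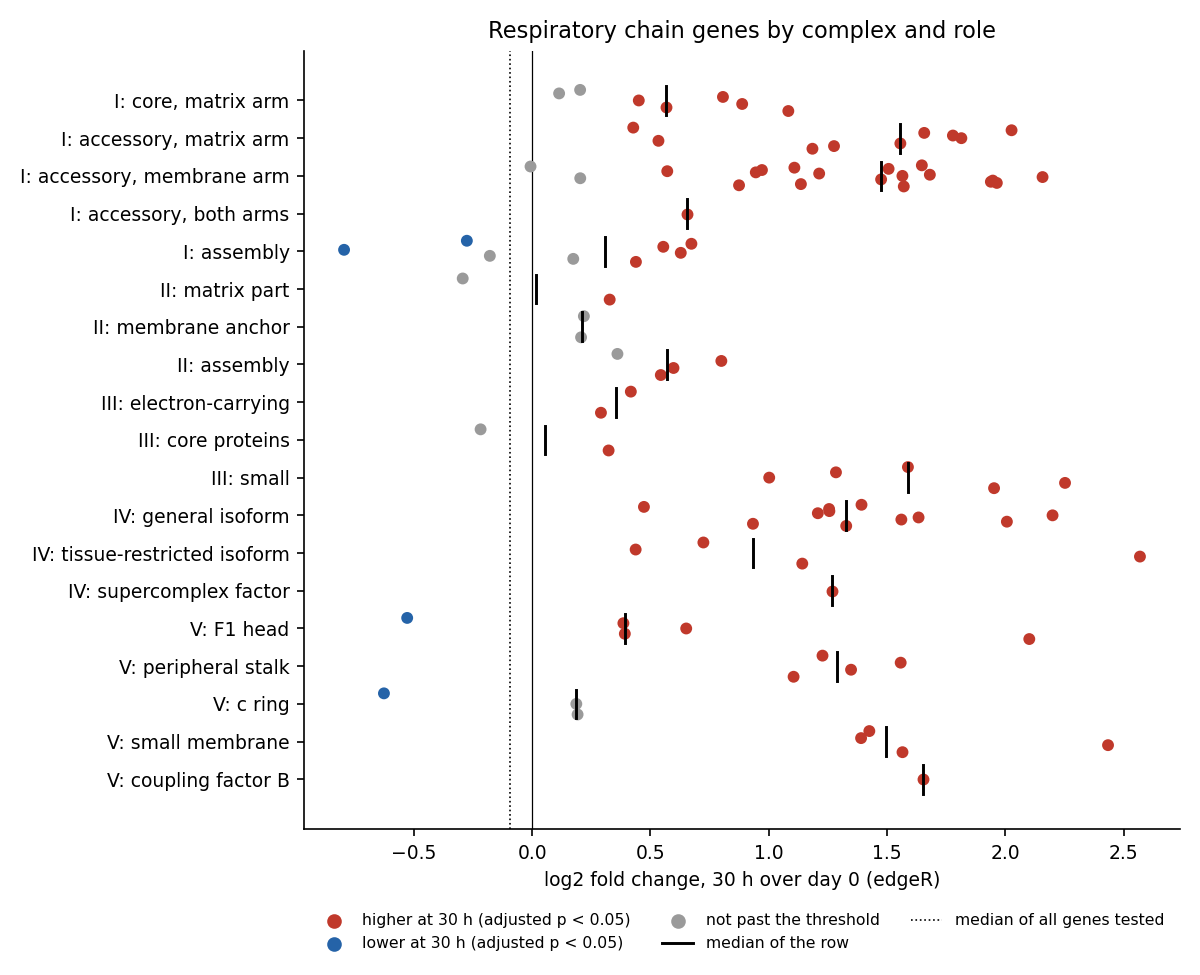
Log2 fold change (30 h over day 0, horizontal axis) of each of the 94 members tested, in rows by complex and role. Red points are higher and blue points lower at 30 h past the threshold, grey points did not pass, black bars are row medians and the dotted line is the median of all genes (-0.09). Accessory and small subunits of complexes I, III, IV and V lie mostly above 1, while complex II and the assembly factors lie below 1.

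The classes stood at a different height in 30 h replicate 3 than in replicates 1 and 2. Relative to the day 0 mean, the median of complex IV subunits stood at 1.08, 1.11 and 1.58 (log2) in 30 h replicates 1, 2 and 3. Complex I subunits stood at 0.93, 0.99 and 1.46, complex V subunits at 0.92, 0.99 and 1.50, and complex III subunits at 0.77, 0.78 and 1.35. Complex II subunits stood at 0.07, 0.09 and 0.39, and complex I assembly factors at 0.19, 0.20 and 0.47. No class median at day 0 departed from 0 by more than 0.10, so replicate 3 was the high library of every class.

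**Figure D2:**
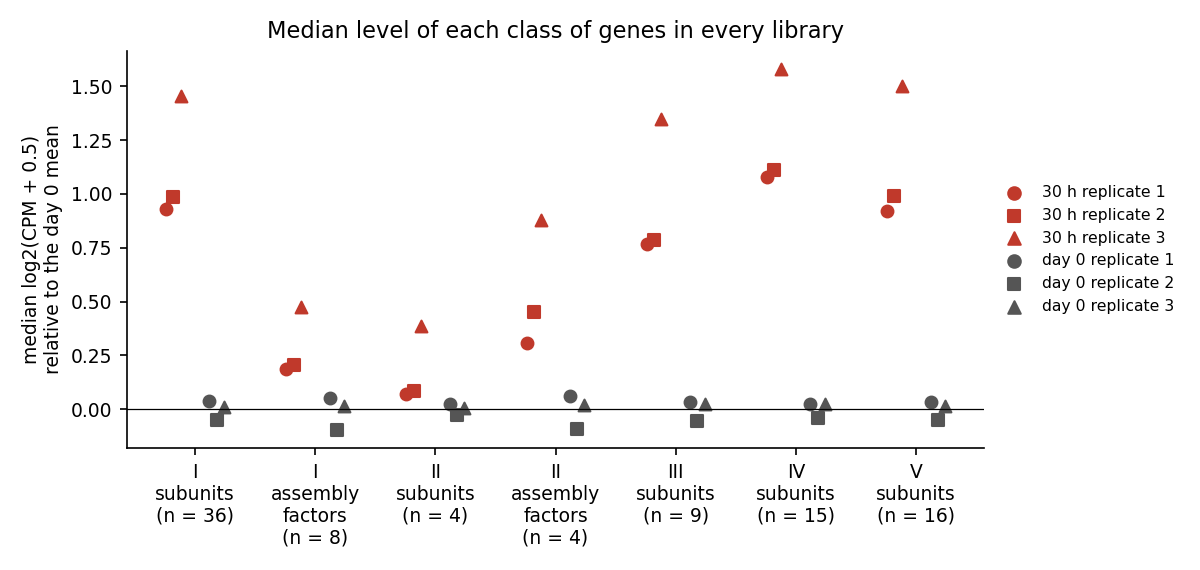
Median level of each class in every library, as log2(CPM + 0.5) relative to the day 0 mean of each gene (vertical axis), with 30 h libraries in red on the left and day 0 libraries in grey on the right of each class. Replicate 3 is the highest 30 h library in every class, and the 30 h medians of complex II subunits (0.07, 0.09 and 0.39) are the nearest to day 0.

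All members together held 2.67% ± 0.357 of counts at 30 h and 2.16% ± 0.0574 at day 0 (SD, n = 3 each). Complex IV genes held 0.526% ± 0.102 and 0.284% ± 0.0115, complex I genes 0.757% ± 0.128 and 0.516% ± 0.0161, and complex III genes 0.374% ± 0.0670 and 0.283% ± 0.00809, at 30 h and at day 0 in each case. Complex II genes held a smaller share at 30 h, 0.134% ± 0.00782, than at day 0, 0.171% ± 0.00461, and with globin genes left out of the total its ranges still did not overlap (means of 0.150% and 0.171%). The share of complex V was 0.878% ± 0.0522 at 30 h and 0.905% ± 0.0181 at day 0, with the ranges overlapping, and without globin genes in the total it was 0.981% ± 0.0862 and 0.906% ± 0.0181, overlapping too. A sum over a complex follows its most abundant genes, which in complex V are Atp5b and Atp5a1. These shares are of library totals without TMM scaling, whose factors were 0.820 to 0.873 at 30 h and 1.18 to 1.19 at day 0. They are thus not on the scale of the TMM log2 changes, and a smaller or level share need not be a fall on that scale.

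Upstream sequence was searched for motifs of factors known for respiratory genes, with letters read from RefSeq (GRCm38.p6) in the 250 bases before each gene's start. The table matched 80 of the member symbols. The NRF1 core TGCGCA, which reads alike on both strands, was found in 17 (21.2%), against 7.36% of all 27025 genes in the table. These 27025 genes were not chosen by expression or matched to the members in base composition. The GABP/ETS core CCGGAAG, on either strand, was found in 16 (20%), against 7.83% of all. The YY1 core AAGATGG, on either strand, was in 1 (1.25%), against 5.18% of all. Sequence from the start onward was not searched, so these shares do not speak for sites there. Windows of 3 complex I genes are shown because they pair motif content with different changes: Ndufb6 has both motifs and a log2 change of 1.47, Ndufb8 has neither and a change of 1.94, and Ndufaf4, the assembly factor with the largest fall, has the NRF1 core and a change of -0.80. Capitals mark the matched letters, CTTCCGG being the ETS core on the other strand. The windows lie at chr4:40279422-40279671 (minus strand), chr19:44555443-44555692 (minus strand) and chr4:24897833-24898082 (plus strand), in that order.
Ndufb6: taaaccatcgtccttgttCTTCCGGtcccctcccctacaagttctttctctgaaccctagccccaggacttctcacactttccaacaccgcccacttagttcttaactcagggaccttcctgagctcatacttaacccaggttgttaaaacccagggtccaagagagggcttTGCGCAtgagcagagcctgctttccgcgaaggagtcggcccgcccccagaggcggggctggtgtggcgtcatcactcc
Ndufb8: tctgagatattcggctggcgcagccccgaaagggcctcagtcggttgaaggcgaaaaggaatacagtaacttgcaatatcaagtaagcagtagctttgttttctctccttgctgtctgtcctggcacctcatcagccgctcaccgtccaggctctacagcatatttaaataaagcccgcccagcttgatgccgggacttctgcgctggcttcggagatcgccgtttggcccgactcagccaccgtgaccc
Ndufaf4: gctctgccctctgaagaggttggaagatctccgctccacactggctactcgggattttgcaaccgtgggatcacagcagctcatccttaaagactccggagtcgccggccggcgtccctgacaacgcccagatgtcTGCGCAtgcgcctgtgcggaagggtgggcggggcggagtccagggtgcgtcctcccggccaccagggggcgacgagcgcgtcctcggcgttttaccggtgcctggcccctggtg
A match is a run of letters in a window and not a bound site.

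In complex I, the 7 nuclear core subunits, which carry the flavin and iron-sulfur clusters of the matrix arm, had smaller changes by their median than the accessory subunits around them. Of the core subunits 5 were higher and none lower, with a median log2 change of 0.57, and of the 29 accessory subunits 27 were higher and none lower, with a median of 1.47. Ndufv1, which binds NADH and the flavin, had 408.0, 404.6 and 391 CPM at 30 h, against 282, 261 and 269 CPM at day 0, a log2 change of 0.57 ± 0.09 (SE, edgeR adjusted p = 0.00049602). Its libraries of each group lay close together and the groups did not overlap. Ndufv2, an iron-sulfur subunit beside it, had 408, 423 and 581 CPM at 30 h, against 232, 212 and 223 CPM at day 0, and was the core subunit that rose most (1.08 ± 0.15, SE). Ndufs8, Ndufs3 and Ndufs7 rose by 0.89, 0.81 and 0.45 on the log2 scale. Ndufs1, which holds several iron-sulfur clusters, had 247, 223 and 184 CPM at 30 h, against 187, 185 and 197 CPM at day 0, and these ranges overlapped (edgeR adjusted p = 0.16718). It was higher without replicate 3 (0.32, edgeR adjusted p = 0.000896) and in DESeq2 (0.25). The calls of Ndufv1 and Ndufs7 were lost with scaling by totals only (0.079 and -0.041), and with a coding length trend removed Ndufs1 was higher (0.47).

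The accessory subunits of the matrix and membrane arms had similar medians. Of the 9 in the matrix arm all were higher, with a median log2 change of 1.56, and of the 19 in the membrane arm 17 were higher, with a median of 1.47. Ndufa2, a small subunit of the NADH-binding part and the most abundant complex I gene per length at 30 h, had 347, 383 and 618 CPM at 30 h, against 109.9, 108 and 113 CPM at day 0 (log2 change 2.03 ± 0.21, SE). Every 30 h library exceeded 3 times the day 0 libraries. Ndufb9, with the smallest adjusted p of the complex I subunits (edgeR adjusted p = 4.0161e-05), had 404, 425 and 647 CPM at 30 h, against 132, 118 and 128 CPM at day 0. Ndufb4 had the largest rise of complex I (2.16 ± 0.24, SE), from a low level of 54.9 ± 18.0 CPM at 30 h and 12.3 ± 1.66 CPM at day 0, and 37.0% of the 50-base stretches of its mRNA occur in other genes. Ndufa10, a kinase-like membrane arm subunit, stood at 201, 188 and 172 CPM at 30 h and 187, 193 and 185 CPM at day 0, which overlap fully, and Ndufb5 at 146 ± 28.9 and 127 ± 4.98 CPM at 30 h and day 0 did not pass either. Ndufa10 was lower with scaling by totals only (-0.50, edgeR adjusted p = 0.00242), and Ndufb5 was higher without 30 h replicate 1 (0.38, edgeR adjusted p = 0.0451). Ndufab1, the mitochondrial acyl carrier protein, which also serves fatty acid synthesis and iron-sulfur cluster assembly, rose by 0.65, a call that was lost with scaling by totals only (0.16) and with a coding length trend removed (0.11).

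The complex I assembly factors went in both directions. Of 8 tested, 4 were higher and 2 lower, with a median log2 change of 0.31, which was -0.19 with scaling by totals only, where none was called higher and 4 were called lower. Ndufaf4, at chr4:24898083-24905001 (mm10), had 39.2, 38.7 and 49.1 CPM at 30 h, against 73.7, 72.8 and 73.9 CPM at day 0. It was the member with the largest fall, by 0.80 on the log2 scale (SE 0.12, edgeR adjusted p = 0.00041014), and the groups did not overlap. Its known partner in early assembly, Ndufaf3, moved the other way, with 39.6, 41.0 and 45.8 CPM at 30 h, against 29.5, 28.0 and 28.6 CPM at day 0 (0.55 ± 0.10, SE). Ndufaf1, a factor of the membrane arm intermediate, had 40.3, 36.2 and 34.2 CPM at 30 h, against 44.7, 44.7 and 44.7 CPM at day 0, and its fall (log2 change -0.28, edgeR adjusted p = 0.034536) was not past the threshold under 7 of the alternatives, among them each day 0 library left out. Ndufaf2, a late chaperone, rose by 0.67, with 51.2 ± 14.5 CPM at 30 h and 32.1 ± 2.08 CPM at day 0, and 65.65% of its exon bases are overlapped by a gene on the other strand. Ndufaf5, an enzyme that hydroxylates Ndufs7, rose by 0.63, and its partner Ndufaf8 by 0.44. The calls of Ndufaf2 and Ndufaf8 were lost without day 0 replicate 2 (adjusted p = 0.054 and 0.118), that of Ndufaf8 also without day 0 replicate 3 (0.0852), and with a coding length trend removed Ndufaf8 was lower (-0.50). Ndufaf7, a methyltransferase, had 62.5 ± 4.78 CPM at 30 h and 55.4 ± 2.90 CPM at day 0, and Ndufaf6 had 25.3 ± 6.11 and 28.6 ± 2.78 CPM. Neither passed (edgeR adjusted p = 0.15137 and 0.37989), but without 30 h replicate 3 Ndufaf6 was lower (-0.38, adjusted p = 0.00834). With scaling by totals only both were lower (-0.32 and -0.67), and with a coding length trend removed Ndufaf7 was higher (0.38).

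Complex II, the one complex with no mitochondrially encoded subunit and a shared member of the citric acid cycle, had the smallest changes. Sdha, the flavoprotein that oxidises succinate, had 424, 371 and 303 CPM at 30 h, against 443, 450.4 and 452 CPM at day 0. Every 30 h library was below every day 0 library, and the log2 change of -0.29 ± 0.13 (SE) did not pass (edgeR adjusted p = 0.070563). It was lower past the threshold without 30 h replicate 1 (-0.36) or without replicate 3 (-0.17), with scaling by totals only (-0.78) or upper quartiles (-0.44), with all counted genes in the fit (-0.39) and after GC correction (-0.35). Sdhb, the iron-sulfur subunit, had 239, 236 and 263 CPM at 30 h, against 197, 195 and 196 CPM at day 0. Its rise of 0.33 ± 0.09 (SE, edgeR adjusted p = 0.010559) was not past the threshold when any 1 day 0 library was left out (adjusted p = 0.0576 to 0.0578), and stood at -0.16 with scaling by totals only. The membrane anchors Sdhc, at 255 ± 21.4 CPM at 30 h and 219.5 ± 7.57 CPM at day 0, and Sdhd, at 538 ± 121 and 466 ± 28.4 CPM, had log2 changes of 0.22 and 0.21, neither past the threshold. With scaling by totals only Sdhc was lower (-0.27), while it was higher without 30 h replicate 1 or 3 (0.31 and 0.15) and in DESeq2 (0.28). With a coding length trend removed both anchors were lower (-0.23 and -0.32). Per length, Sdhd was the most abundant complex II gene, at 437 RPKM at 30 h and 379 RPKM at day 0.

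Among the assembly factors of complex II, 3 of 4 were higher, with a median log2 change of 0.57. Sdhaf2, which helps attach the flavin to Sdha, had 110.0, 115 and 142 CPM at 30 h, against 70.9, 68.1 and 72.1 CPM at day 0, and rose by 0.80 (SE 0.12, edgeR adjusted p = 0.00045343). Sdhaf4, a chaperone of flavinated Sdha, and Sdhaf3, which serves the iron-sulfur subunit, rose by 0.54 and 0.60. With a coding length trend removed, Sdhaf4 was lower (-0.29) and Sdhaf3 stood at -0.11. With scaling by totals only neither was called (0.050 and 0.10). The call of Sdhaf4 was also lost without day 0 replicate 2 or 3 (adjusted p = 0.0868 and 0.0744). Sdhaf1, a further factor for the iron-sulfur subunit, had 15.7 ± 3.28 CPM at 30 h and 12.2 ± 0.941 CPM at day 0 and did not pass (edgeR adjusted p = 0.076574), though it was higher without 30 h replicate 2 (0.48) and lower with a coding length trend removed (-0.38). In Sdhaf1, 69.0% of mRNA 50-base stretches occur, on either strand, in transcripts of 1 other gene. A gene on the other strand overlaps 69.6% of its exon bases.

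Complex III divided by subunit size. The 5 small subunits were all at least 2-fold higher, with a median log2 change of 1.59. Their coding sequences have 168 to 333 bases, against 822 to 1440 bases in the other 4. With a coding length trend removed, the small subunit Uqcr11 stood at 0.078 and its call was lost. Uqcrh, the hinge protein at the cytochrome c side (chr4:116066965-116075071, mm10), had 651, 723 and 1270.1 CPM at 30 h, against 190.1, 169 and 195 CPM at day 0. It rose by 2.25 ± 0.25 (SE, edgeR adjusted p = 9.0914e-05), and replicate 3 was far above the other 30 h libraries. Uqcrq, a small membrane subunit, had 654, 693 and 1052 CPM at 30 h, against 216, 194 and 209.6 CPM at day 0 (log2 change 1.95). Uqcr10 was the most abundant complex III gene per length, at 959 ± 337 RPKM at 30 h and 319 ± 14.6 RPKM at day 0. The larger subunits had smaller changes. Cyc1, cytochrome c1, had 543, 525 and 617 CPM at 30 h, against 431, 408 and 423 CPM at day 0, and rose by 0.42 ± 0.10 (SE). Uqcrfs1, the Rieske iron-sulfur protein, rose by 0.29, and Uqcrc2, a core protein, by 0.32. Uqcrc1, the other core protein, had 566, 536 and 491 CPM at 30 h, against 621, 618 and 614 CPM at day 0, a log2 change of -0.22 that did not pass (edgeR adjusted p = 0.063014), although the groups did not overlap. Uqcrc1 was lower past the threshold without 30 h replicate 3 (-0.16), in DESeq2 (-0.17), with all counted genes in the fit (-0.31), and with scaling by upper quartiles (-0.36) or totals only (-0.71). The calls of Uqcrfs1 and Uqcrc2 were lost without day 0 replicate 1 or 2 (Uqcrfs1 also without day 0 replicate 3), and Cyc1, Uqcrfs1 and Uqcrc2 stood at -0.075, -0.20 and -0.17 with scaling by totals only.

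Every complex IV subunit tested was higher at 30 h. Cox4i1, the largest nuclear subunit (chr8:120668222-120674207, mm10), had 1522, 1614 and 2294 CPM at 30 h, against 721, 647 and 701 CPM at day 0. It rose by 1.39 ± 0.16 (SE, edgeR adjusted p = 0.00012793) and was the most abundant member per length at 30 h, with 1168 ± 272 RPKM, against 445 ± 25.0 RPKM at day 0, when Atp5a1 and Atp5b exceeded it. Next at 30 h stood Uqcr10, Cox6a1 and Cox6b1, at 959 ± 337, 925 ± 126 and 906 ± 195 RPKM, each within the spread of the other 2. Cox6c, a small membrane subunit, had 341, 375 and 602 CPM at 30 h, against 96.1, 88.2 and 103 CPM at day 0 (log2 change 2.20). Cox7a2, Cox7b and Cox6a1 rose by 1.63, 1.56 and 1.26, and Cox6b1, which faces cytochrome c, by 1.21. Ndufa4, named for complex I but found in complex IV, rose by 1.33, with 507 ± 148 CPM at 30 h and 202 ± 12.8 CPM at day 0. Cox7c rose by 2.01 but was counted at 11.4 ± 2.65 CPM at 30 h and 2.82 ± 0.224 CPM at day 0, and 53.0% of its mRNA 50-base stretches occur in other genes. Cox5b and Cox5a, small subunits on the matrix side, rose by 1.25 and 0.47. Cox5a stood at -0.020 with scaling by totals only, and Cox5a and Cox8a, which rose by 0.93, at -0.11 and -0.12 with a coding length trend removed, none past the threshold. Cox7a2l rose by 1.27 ± 0.12 (SE), with 186, 182 and 235 CPM at 30 h, against 87.1, 80.9 and 82.6 CPM at day 0.

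Among isoforms of complex IV known for restricted tissues, Cox6b2, the testis isoform of Cox6b (chr7:4751792-4753094, mm10), stood out by level. It had 189.8, 187 and 242 CPM at 30 h, against 33.8, 35.1 and 35.4 CPM at day 0. Its log2 change of 2.57 ± 0.13 (SE, edgeR adjusted p = 2.0763e-06) was the largest of the members, 5.93-fold, and none of its mRNA 50-base stretches occurs in other genes. Per length, Cox6b2 made up 18.1%, 17.1% and 16.2% of the 2 Cox6b transcripts at 30 h, against 7.11%, 7.68% and 7.42% at day 0, so the shares did not overlap. Cox6b1 remained the larger at 906 ± 195 RPKM at 30 h and 393 ± 10.3 RPKM at day 0. The other isoforms were near the bottom of the range. Cox4i2, the isoform known from lung and low oxygen, had 6.24 ± 1.51 CPM at 30 h and 3.76 ± 0.0329 CPM at day 0, and held 0.674% and 1.06% of Cox4i transcripts. The muscle isoforms Cox7a1 and Cox6a2 had 4.71 ± 2.28 and 2.84 ± 0.326 CPM at 30 h, against 2.11 ± 0.0257 and 2.09 ± 0.0872 CPM at day 0. Cox7a1 held 1.48% of Cox7a1 and Cox7a2 transcripts at 30 h and 2.12% at day 0, and Cox6a2 held 0.450% and 0.786% of its pair. Each of these 3 was called higher (log2 changes of 0.72, 1.14 and 0.44 for Cox4i2, Cox7a1 and Cox6a2), but all 3 calls were lost with scaling by totals only, and that of Cox6a2 without any 1 day 0 library and without 30 h replicate 2 or 3.

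**Figure D3:**
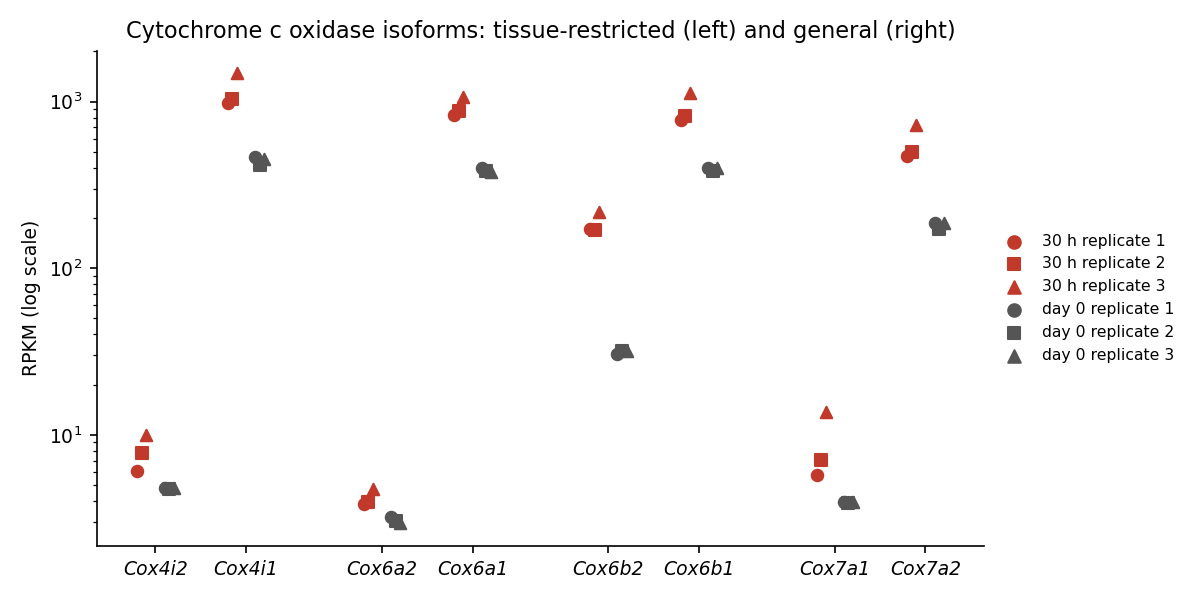
RPKM on a log scale (vertical axis) of the restricted isoform (left) and the general isoform (right) of the families Cox4i, Cox6a, Cox6b and Cox7a, with 30 h libraries in red left of day 0 libraries in grey, 1 point a library. Cox6b2 lies within 1 order of magnitude of Cox6b1 at 30 h (186 and 906 RPKM on average), while the other restricted isoforms lie far below their partners.

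In complex V the F1 part, the catalytic head with its central stalk, had a median log2 change of 0.39, with 4 subunits higher and 1 lower. Atp5a1, the alpha subunit of the head, had 1730.4, 1592 and 1430.4 CPM at 30 h, against 2328, 2249 and 2279 CPM at day 0. It fell by 0.53 on the log2 scale (SE 0.10, edgeR adjusted p = 0.0017654), and every 30 h library lay below every day 0 library. Atp5b, the beta subunit that carries the catalytic sites with it (chr10:128083273-128090391, mm10), went the other way, with 3832, 3621 and 3408 CPM at 30 h, against 2829.8, 2736 and 2749 CPM at day 0. Its rise of 0.39 ± 0.09 (SE, edgeR adjusted p = 0.0056436) stood at -0.10 with scaling by totals only, where the call was lost. Per length, Atp5a1 was the most abundant member at day 0 (729 ± 12.9 RPKM) and the tenth at 30 h (505 ± 47.9 RPKM), below Atp5b at 854 ± 50.02 RPKM. The central stalk subunits Atp5c1 (gamma), Atp5d (delta) and Atp5e (epsilon) rose by 0.65, 0.39 and 2.10. Atp5e had 672, 716 and 1225 CPM at 30 h, against 213, 181 and 215 CPM at day 0. With scaling by totals only, the calls of Atp5c1 and Atp5d were lost (0.16 and -0.098).

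All 8 tested subunits of the peripheral stalk and the small membrane group of complex V were higher, with medians of 1.29 and 1.50. Atp5h, subunit d of the peripheral stalk, had 141, 142 and 192 CPM at 30 h, against 54.7, 51.5 and 55.1 CPM at day 0 (log2 change 1.56, edgeR adjusted p = 3.0107e-05). Atp5f1, Atp5j and Atp5o, the other stalk subunits, rose by 1.23, 1.35 and 1.10. Of the small membrane subunits Atp5mpl, Atp5j2 and Atp5k rose by 1.57, 1.43 and 1.39. Atp5l, subunit g, had the largest fitted rise of the complex (2.43 ± 0.32, SE), but only 2.78 ± 0.850 CPM at 30 h and 0.504 ± 0.110 CPM at day 0, with 84.85% of its mRNA 50-base stretches in other genes. The 3 genes of the c ring, which encode the same mature protein, included none that was called higher with TMM scaling. Atp5g3, by far the most abundant of them, had 672, 713 and 952 CPM at 30 h, against 698, 664 and 685 CPM at day 0, ranges that overlap (log2 change 0.19, edgeR adjusted p = 0.24444), and it was lower with a coding length trend removed (-0.43). Atp5g1 fell by 0.63 on the log2 scale, with 7.01, 5.54 and 5.29 CPM at 30 h, against 9.47, 8.485 and 9.71 CPM at day 0. Atp5g2 had 0.721 ± 0.205 CPM at 30 h and 0.631 ± 0.0227 CPM at day 0 and did not pass (log2 change 0.19), all of its mRNA 50-base stretches occur in other genes, and it was called higher with the GC trend removed (1.21, edgeR adjusted p = 0.00491). Atp5s rose by 1.65, with 31.4 ± 3.94 CPM at 30 h and 9.98 ± 1.08 CPM at day 0.

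Members with shorter coding sequences had the larger log2 changes. Across the 94 members tested, coding length and log2 change had a Spearman rho of -0.62 and a Pearson r of -0.61, given as a description since genes are not independent replicates and share the same libraries. Transcript GC content had a rho of -0.056. The 50 members with coding sequences under 450 bases had a median log2 change of 1.37 with 46 higher, the 28 of 450 to 900 bases a median of 0.76 with 24 higher, and the 16 over 900 bases a median of 0.19 with 7 higher. All protein-coding genes tested followed the same order, with medians of 0.70, 0.11 and -0.36 and with 58.2%, 41.9% and 27.2% higher in these classes. In each class the members' median lay above that of all protein-coding genes. Core subunits of complex I had a median coding length of 789 bases and accessory subunits 411 bases.

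**Figure D4:**
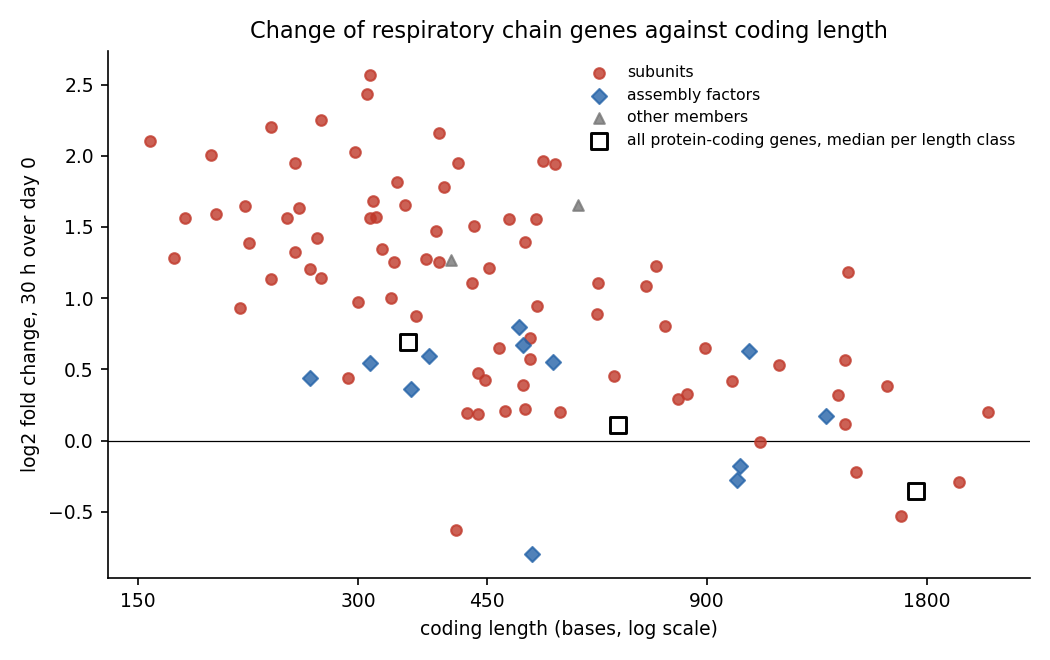
Log2 fold change, 30 h over day 0 (vertical axis), against coding length in bases (log scale, horizontal axis) of subunits (red circles), assembly factors (blue diamonds) and other members (grey triangles). Open squares are medians of all protein-coding genes under 450, 450 to 900 and over 900 bases (0.70, 0.11 and -0.36), placed at the median length of each class, and the members decline with length as these do.

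When each library's dependence of counts on coding length was removed, 62 members were higher and 9 lower, and their median log2 change was 0.48. This step was run on the 14363 protein-coding genes tested, whose median was -0.12, against -0.20 without it. The medians of core and accessory subunits of complex I were then 0.63 and 0.74, against 0.57 and 1.47 without this step. Pooled over complexes, subunits and assembly factors stayed apart, at 0.53 and -0.13, against 1.16 and 0.49 before. In complex II, assembly factors had the larger median before (0.57, against 0.21 for subunits). After this step the median of complex II subunits was -0.14 and that of complex II assembly factors -0.20. The part of coding length in the changes was not tested beyond this.

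**Figure D5:**
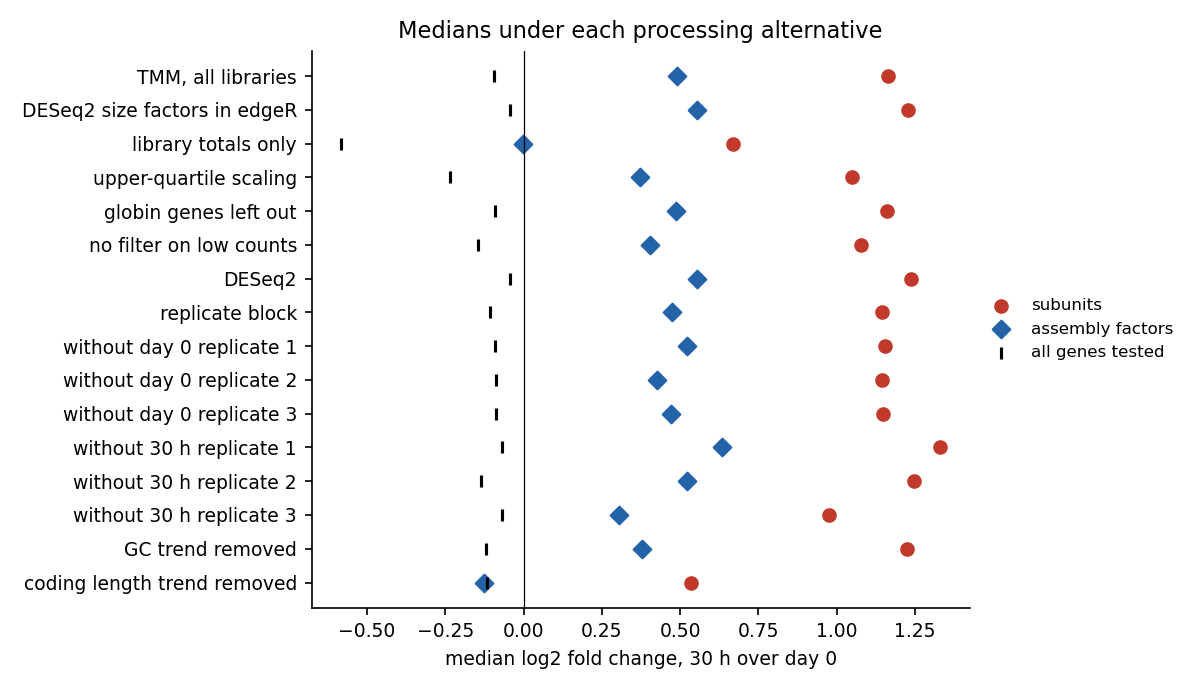
Median log2 fold change, 30 h over day 0 (horizontal axis), of subunits (red circles), assembly factors (blue diamonds) and all genes tested (black ticks; protein-coding genes only in the coding length row) under TMM with all libraries and each alternative (rows). Pooled over complexes, the subunits lie right of the assembly factors in every row, and the assembly factors lie nearest to the black tick with the coding length trend removed (-0.13 and -0.12).

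Pooled, the other listed genes, among them regulators and mitochondrial proteins outside the chain, did not share the direction of the subunits. Of 91 listed genes 90 were matched and 74 tested, with 29 higher, 27 lower and 18 not past the threshold, shares near those of all genes (34.4% and 40.1%). The lists differed, and among assembly factors of complex IV 12 of 22 were higher and 5 lower, with a median log2 change of 0.60. Higd1a, a hypoxia-induced factor, rose by 3.47, with 182 ± 44.6 CPM at 30 h and 16.5 ± 0.744 CPM at day 0, while Cox10, which makes heme O for the enzyme, fell by 1.66 on the log2 scale, with 14.1 ± 2.22 CPM at 30 h and 44.8 ± 1.38 CPM at day 0. Higd2a, the most abundant of that list, rose by 0.85, but stood at 0.048 with a coding length trend removed, no longer past the threshold. Further complex I assembly factors gave 3 higher and 3 lower of 10, among them Tmem126b (0.97) and Dmac2 (-1.09), and Dmac1 did not pass (0.30), though it was higher without 30 h replicate 1 (0.48) and lower with a coding length trend removed (-0.49). Those of complex III gave 3 higher and 2 lower of 6, with Uqcc2 at 1.06 and Bcs1l, which inserts the Rieske protein, at -0.88. Those of complex V gave 1 higher, Tmem242 (1.17), and 2 lower of 4, with Atpaf1 at -0.48, a call lost without day 0 replicate 1 or 2 (edgeR adjusted p = 0.0565 and 0.0577).

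Electron carriers and regulators completed the list. Etfa, a subunit of the flavoprotein that brings electrons from fatty acid oxidation, rose by 1.21, and Dhodh, the pyrimidine enzyme that feeds ubiquinone, fell by 1.03 on the log2 scale. Of the carriers 3 were higher and 1 lower of 6. Among 14 tested regulators of respiratory gene expression, 8 were lower and 3 higher. Ppargc1a, the coactivator PGC-1 alpha, had 0.273 ± 0.111 CPM at 30 h and 3.21 ± 0.635 CPM at day 0 (log2 change -3.57), and Tfam, which packages and transcribes mitochondrial DNA, had 90.7 ± 11.7 and 124 ± 1.79 CPM (-0.45, and -0.32 without 30 h replicate 1, where the call was lost). Gabpb1, a subunit of the GABP factor, rose by 1.00. Of 12 mitochondrial proteins outside the chain, 6 were lower and 4 higher, with the import receptor Tomm20 at 0.92, the chaperone Hspd1 at -1.72 and the nucleotide carrier Slc25a5 at -0.22. The call of Slc25a5 was at the threshold (edgeR adjusted p = 0.049958) and was lost in 5 of the 6 fits with 1 library left out, the exception being 30 h replicate 3, in DESeq2 and with its size factors in edgeR. That of Tomm20 was lost with scaling by totals only (0.42). All 13 mitochondrially encoded subunits were listed at 0 counts in every library and could not be compared with their nuclear partners.

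Marker lists of other cell types moved in the same libraries. Hepatoblast markers were lower in 6 of 8, with summed levels of 784 to 2287 CPM at 30 h and 12770.2 to 14346 CPM at day 0. Mesenchyme markers were lower in 5 of 6 (23.3 to 56.0 CPM at 30 h and 1440 to 1837 CPM at day 0) and endothelium markers in 6 of 6 (30.3 to 38.4 and 168 to 194 CPM). Early progenitor markers were lower in 6 of 7 (744 to 867 and 2497 to 2622 CPM). Macrophage markers gave 3 higher and 1 lower of 7 (149.7 to 225 and 191 to 212 CPM), with Cd163 at 0 counts in every 30 h library. Megakaryocyte markers gave 1 higher and 3 lower of 6 (560.4 to 956 and 534 to 631 CPM). Neutrophil and mast cell markers gave 3 higher and 3 lower of 7 (3032 to 5099 and 1247 to 1383 CPM). The part of these cell types in the respiratory chain results was not tested.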

How the data were processed

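RNA-seq gene counts of 6 libraries were used, 3 of 30 h and 3 of day 0. The authors deposited raw read counts for each gene, whole numbers, in 1 file for each library. Per the labels' protocols, total RNA came from a column-based kit. Reads were processed with cutadapt 1.13, STAR and HTSeq 0.6.1p1 on build mm10, and DESeq2 is named too, per the submitters' processing notes. No source used here states a strand setting of the counting, and 31 members have an exon overlapped by a gene on the other strand, whose reads may not be separated. Of 54232 gene IDs, 54079 were found in the chromosome annotation of GENCODE M21 (same assembly) and 153 were not (at most 0.00474% of counts).

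Genes were tested by quasi-likelihood in edgeR (version 4.0.16, R 4.3.3; robust fit, TMM scaling, filterByExpr defaults, no covariate), with Benjamini-Hochberg adjustment over all 16150 genes tested at 0.05. RPKM used the exon union. Sharing was the percentage of 50-base stretches of the mRNA with the longest coding sequence found in transcripts of other genes, on either strand. With at most 20% shared, 74 tested members remained, 59 higher and 4 lower, with a median log2 change of 0.91. Members and lists were chosen with earlier results of these data known. Named genes are the enzyme cores (1 member is not reported here by name), all assembly factors, isoform families, and in each class or list the genes with the highest and lowest log2 change and with the highest level, and for members the smallest adjusted p.

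Deviations of same-numbered libraries had correlations of -0.105, 0.105 and -0.029, and those of libraries with unlike numbers -0.108 to 0.141. A pairing of the samples by number is not stated, and these values cannot settle it. Replicates differed by more than sampling noise (chi-square per degree of freedom of at least 4.02). The steps were tested on simulated data with equal spread in both groups: 35.7%, 83.3% and 98.3% of genes changed 1.5-fold, 2-fold and 4-fold were called, and 9 unchanged genes of 15803 tested. Only 70, 66 and 60 tested genes were changed by these sizes, up or down, while 74.5% of genes were called in the data. The scaling was thus not tried under so wide a change, and these rates need not hold there. Alternatives were other scalings, globin genes left out, no filter, DESeq2 1.42.0, the replicate block, each library left out, and Ndufa4 counted with complex I. Lowess removal of the GC or the coding length trend of every library was added after seeing the data, the second on the 14363 protein-coding genes alone.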

Additional observations from a re-analysis of the deposited data

How the results depend on the processing

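The members called higher numbered 53 to 78 over the alternatives with all 6 libraries and 69 to 79 with 1 library left out. Those called lower were 11 with scaling by totals only, 9 with the coding length trend removed, and 3 to 7 with 1 library left out. With totals only, medians were 0.55 for all members, 0.67, 0.51, 0.76 and 0.67 for subunits of complexes I, III, IV and V, -0.28 for complex II subunits, and -0.19 and 0.077 for complex I and II assembly factors. Calls were then 2 lower complex I subunits, 0 higher and 4 lower complex I assembly factors, 0 higher and 2 lower complex II subunits, 1 higher complex II assembly factor, 5 higher and 1 lower complex III subunits, 18 other pathway genes higher and 3601 genes higher in all. With the coding length trend removed, medians were 0.48 for all members, 0.68, 0.43, 0.49 and 0.50 for subunits of complexes I, III, IV and V, -0.14 for complex II subunits, and 0.019 and -0.20 for complex I and II assembly factors, with 2 higher complex I assembly factors, 2 lower complex II subunits, and 1 higher and 2 lower complex II assembly factors. With upper-quartile scaling 1 complex I assembly factor was higher, 0 complex II subunits higher and 1 lower, 1 complex II assembly factor higher, and 5 complex III subunits higher and 1 lower. Without the filter 0 complex II subunits were higher and 1 lower, and 1 complex III subunit was lower. DESeq2 called 2 complex II subunits higher and 1 complex III subunit lower, its size factors in edgeR 1 complex I assembly factor lower, and GC removal 1 complex II subunit lower and 1 complex II assembly factor higher.

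With 1 library left out, complex I assembly factors gave 2 to 4 higher and 1 to 3 lower, complex II subunits 0 to 2 higher and 0 to 1 lower, and complex III subunits 0 to 1 lower. With the replicate block, 75 members were higher and 3 lower, with 1 complex I assembly factor lower, and Ndufaf1, Uqcrfs1, Cox6a2 and, outside the members, Slc25a5 lost their calls. Without globin genes in the total, complex II held 0.150% and complex V 0.981% at 30 h.

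Sign changes are given for genes described that were called in the TMM fit or in the alternative. With totals only, log2 changes turned sign for Ndufs7 (-0.041), Sdhb (-0.16), Sdhc (-0.27), Cyc1 (-0.075), Uqcrfs1 (-0.20), Uqcrc2 (-0.17), Cox5a (-0.020), Atp5b (-0.10), Atp5d (-0.098), Ndufaf8 (-0.054), Ndufaf7 (-0.32) and Cox6a2 (-0.053). With the coding length trend removed they did so for Sdhc (-0.23), Sdhd (-0.32), Cox5a (-0.11), Ndufaf8 (-0.50), Sdhaf4 (-0.29), Sdhaf1 (-0.38), Sdhaf3 (-0.11), Cox8a (-0.12), Cox6a2 (-0.41), Atp5d (-0.054), Atp5g3 (-0.43) and Dmac1 (-0.49). Among the genes described, calls were lost with upper-quartile scaling for Ndufaf2, Ndufaf5, Ndufaf8, Sdhb, Sdhaf3, Sdhaf4, Cyc1, Uqcrfs1, Uqcrc2, Cox5a and Cox6a2, without the filter for Ndufaf8, Sdhb, Uqcrfs1, Uqcrc2, Cox6a2 and Atp5b, after GC removal for Sdhaf3, Sdhaf4, Uqcrc2 and Cox5a, and with the coding length trend removed also for Ndufaf1, Ndufaf2, Ndufaf3, Ndufab1, Uqcr11, Cox4i2, Cox7a1 and Atp5d. The cause of these shifts was not tested. Higher genes were 46.1% of all calls with TMM, 29.1% with totals only and 40.6% with upper-quartile scaling. The spread at 30 h limits precision more than depth for all but the lowest members.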

Other observations

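Of genes with kindred names or products outside the name rule, 4 that are in none of the lists above were looked at. Ndufa4l2, a paralog of Ndufa4 known for its induction by low oxygen, had 81.8, 78.5 and 72.6 CPM at 30 h, against 2.23, 2.05 and 2.40 CPM at day 0, a log2 change of 5.12. Atpif1, the inhibitor of ATP synthase, had 1195, 1243 and 1809 CPM at 30 h, against 277, 256 and 271 CPM at day 0, a log2 change of 2.40. Usmg5, a small subunit of ATP synthase, and Ndufb1-ps, a complex I gene with a pseudogene symbol, had log2 changes of 2.50 and 1.79. All 4 were called higher, against 34.4% of all genes, and their groups did not overlap, as in 79.7% of all genes. They were picked by hand and do not stand for genes outside the name rule.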
